A study of Mus musculus with 3 samples.

Results

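The Hox genes of the mouse lie in 4 clusters, and the occupancy of these clusters by the thyroid hormone receptor TRα1 was examined in neurons of the adult striatum. All protein-coding genes of the GENCODE annotation of GRCm38 whose symbol is Hoxa, Hoxb, Hoxc or Hoxd followed by a number were taken, which gave 39 of 21938 protein-coding genes. The Hoxa cluster held 11 genes, the Hoxb cluster 10, the Hoxc cluster 9 and the Hoxd cluster 9. A TR binding site (TRBS) was linked to a gene if its summit, the base of highest coverage, lay inside the gene body or within 10 kb of the 5′ end of the gene. The study used a longer distance, 30 kb from the transcription start, which is among the alternatives given at the end.

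The series held 2 ChIP-seq libraries and 1 input library of striatum from male C57BL/6J mice at 8 weeks of age, and the processed data were 1 list of 23988 TRBS without values for single libraries. All mice were euthyroid and received no treatment. They carried a GS-tagged TRα1, meant to be present only in GABAergic neurons of the striatum, from a construct that becomes active after Cre recombination. The Cre line is not given in the sources used here, and a library from mice without the tagged receptor was not analysed here. As a check of the labelled cells, 13 of 14 marker genes of striatal GABAergic neurons had a linked TRBS, and Adora2a was the exception. Of 15 markers of glutamatergic neurons, astrocytes, oligodendrocytes, microglia and endothelial cells, 2 had one, namely Slc17a7 with a fold enrichment of 6.41 and Cx3cr1 with 7.47. The share was 44.7% over all protein-coding genes. CpG-rich promoters, at which TRBS were more frequent, belonged to 7 of the 14 and 0 of the 15 genes. Their part in these counts, and that of gene length, was not tested. Replicates could not be compared and the depth of the libraries was not analysed here, so the 95% intervals given below cover counting error only.

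Hox genes encode homeodomain transcription factors that give cells of the embryo their position along the head-to-tail axis. Their order on the chromosome follows the order of the body regions in which they are active, so that genes at one end of a cluster act in the hindbrain and genes at the other end in the lumbar spinal cord, the distal limb and the tail. In the forebrain, from which the striatum arises, the clusters are known to be held silent by polycomb proteins. Outside it, retinoic acid activates the anterior genes through the retinoic acid receptor, a nuclear receptor that, like TR, binds DNA as a heterodimer with RXR. TR and RXR bind the DR4 element, in which the half-site AGGTCA occurs 2 times in the same direction, 4 bp apart. No RNA measurement was analysed here, so whether the Hox genes were silent in these neurons was not tested.

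The sequence of the single TRBS that was linked to Hox genes is given first, since all linked members rest on it. It covered chr6:52221693-52222000 of GRCm38, around the most upstream 5′ end of Hoxa7. The first stretch, chr6:52221767-52221796, is the 30 bases around the summit in the untranslated first exon of Hoxa7. The second, chr6:52221855-52222000, is the part of the TRBS upstream of the 5′ end and is annotated as intergenic. Both are given on the plus strand, whereas Hoxa7 is on the minus strand. The capitals mark the reverse complement of GCCGCCAT, a core motif of the zinc finger protein YY1, in the first and a GC box, GGGCGG, in the second.
Hoxa7 summit: ccggagATGGCGGCgagaaagcctcttgcg
Hoxa7 upstream: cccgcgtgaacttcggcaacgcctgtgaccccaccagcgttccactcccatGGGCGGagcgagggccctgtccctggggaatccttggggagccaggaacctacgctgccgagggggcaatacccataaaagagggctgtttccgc

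The DR4 elements of the clusters are shown next, since they are the sequences a TR–RXR heterodimer could bind. The 4 elements with the best match, in which 1 of the 12 bases of the half-sites differed, were all on the minus strand and none was touched by a TRBS. The fifth, with 2 mismatches and on the plus strand, was the only element of the clusters with at most 2 mismatches that was touched by a TRBS. The capitals mark the half-sites.
Hoxa9 exon, chr6:52229820-52229835: AGGCCAttcaAGGTCA
Hoxb9 intron, chr11:96274328-96274343: AGGTCAgaagAGCTCA
Hoxc5 intron, chr15:102990122-102990137: AGGTCAactcAGGTTA
downstream of Hoxc4, intergenic, chr15:103038220-103038235: AGGTCAgaccAGGTCC
downstream of Hoxd1, intergenic, chr2:74774869-74774884: GGGTCActccAGGTTA

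The first comparison asked how many Hox genes had a linked TRBS. A linked TRBS was found for Hoxa3, Hoxa7 and Hoxa9, that is 3 of 39 Hox genes or 7.69% (95% Wilson interval 2.65 to 20.3). Among all protein-coding genes, 9810 of 21938 or 44.7% had one. In the Hoxa cluster the count was 3 of 11 or 27.3% (9.75 to 56.6). It was 0 of 10 in the Hoxb cluster (upper limit of the interval 27.8%), 0 of 9 in the Hoxc cluster and 0 of 9 in the Hoxd cluster (29.9% each). The genes of a cluster share their surroundings and 1 TRBS can be linked to several of them, so that these intervals, which treat genes as independent, are too narrow.

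**Figure D1:**
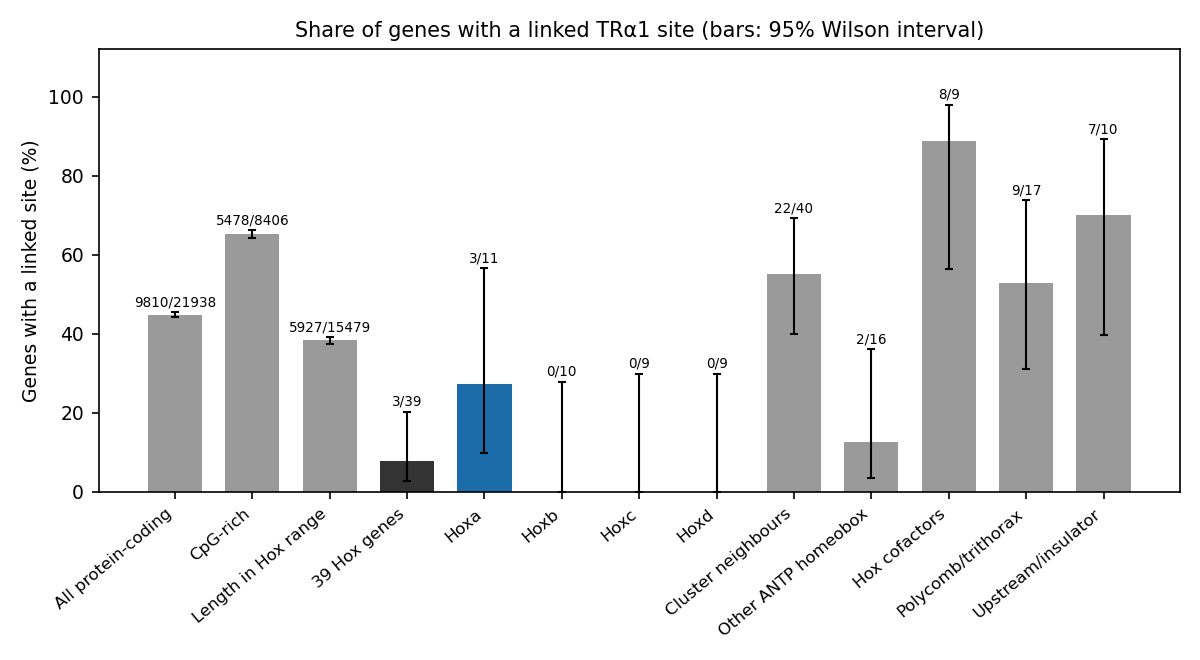
Share of genes with a linked TRBS (percent, bars) with its 95% Wilson interval (lines) and the number of genes with a TRBS of the number in the group. The 39 Hox genes stand at 7.69% and the Hoxb, Hoxc and Hoxd clusters at 0, whereas all protein-coding genes stand at 44.7%, CpG-rich ones at 65.2% and the 40 neighbours of the clusters at 55%.

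All 3 genes were linked by the same TRBS. Its summit, at position 52221781 of chromosome 6, lay 73 bp downstream of the 5′ end of Hoxa7, a gene that patterns the thoracic vertebrae. It lay 8445 bp upstream of the 5′ end of Hoxa3, which is needed for the thymus and the parathyroid glands. It lay 9308 bp downstream of the 5′ end of Hoxa9, past the 3′ end of that gene, which is known from blood stem cells and leukaemia. By the 5′ end of the gene record, Hoxa3 and Hoxa9 were thus just inside the 10 kb limit. Just outside it were Hoxd1, a gene of pain-sensing neurons, at 11847 bp, and Hoxa6, a gene of the thoracic region, at 13059 bp. From the nearest transcript start, Hoxa9 was at 4408 bp and Hoxa10 at 11543 bp.

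The TRBS at Hoxa7 was 308 bp long, with a pileup of 19 fragments at its summit and a local background of 2.19 fragments. The fold enrichment was 6.27, the score 96 and −log10 q 9.63, where the score is 10 times −log10 q without decimals. In the whole list the median was 21 for the pileup, 7.4 for the fold enrichment and 125 for the score, with a minimum score of 60 set by the authors. A lower fold enrichment was found in 31.7% of all TRBS and a lower score in 38.1%. With a score of at least 200, 0 of 39 Hox genes had a linked TRBS, against 21.9% of all protein-coding genes.

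The position of this TRBS relative to the promoter depended on the transcript. Of the 5 annotated transcripts of Hoxa7, Hoxa7-204 starts 73 bp from the summit and the others start 1388, 3070, 4276 and 4329 bp from it. The start of Hoxa7 in the RefSeq promoter table of the same build lay 3208 bp away. The TRBS was thus at the promoter of 1 transcript and upstream of all the others.

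The TRBS at Hoxa7 held no DR4, even with 3 mismatches, and no single half-site AGGTCA, a motif present in 30.7% of all TRBS. The motif GCCGCCAT, searched on both strands as were the others, ended 1 bp before the summit. It was found in 2.21% of all TRBS, in 7.85% of the 4894 TRBS within 1 kb of a 5′ end and in 1.11% of the 3791 TRBS of like length, within 30 bp of its own. It was added after the sequence had been seen. The GC box was common at promoters, with 77.7% of the TRBS within 1 kb of a 5′ end and 28.6% of all TRBS. The CCAAT box (41.2% of all TRBS) and the E-box CACGTG (10.3%) were absent from it. So were the AP-1 motif TGANTCA (19.7%) and the motif TGATTNAT of PBX–HOX dimers (5.94%).

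Since promoters hold many TRBS, the 5′ ends were then examined alone. A summit within 1 kb of the 5′ end was found for Hoxa7 only, 1 of 39 Hox genes or 2.56% (0.454 to 13.2), against 23.2% of all protein-coding genes. TRBS were more frequent at CpG-rich promoters, where 44.1% of all genes had one, than at the others, where 10.3% had one, so the comparison was repeated within the CpG-rich class. A promoter was called CpG-rich if the ratio of observed to expected CpG was at least 0.6 and the GC content at least 55% from 500 bp before to 500 bp after the 5′ end. This class held 20 of 39 Hox genes or 51.3%, and 38.3% of all protein-coding genes. Of the 20 CpG-rich Hox genes, 1 had a linked TRBS, or 5% (0.888 to 23.6), against 65.2% of all CpG-rich genes. For a summit within 1 kb the count was the same, 1 of 20, and that gene was Hoxa7 in both cases.

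The clusters differed in this class. In the Hoxd cluster 7 of 9 promoters were CpG-rich, among them those of Hoxd1, Hoxd3, Hoxd4 and Hoxd13, and none had a linked TRBS. In the Hoxc cluster 5 of 9 were, in the Hoxa cluster 6 of 11 and in the Hoxb cluster 2 of 10, namely Hoxb7 and Hoxb9. The median GC content of the promoters was 52.6% in the Hoxb cluster and between 57.4 and 58.6% in the others. All these promoters were taken at the 5′ end of the gene record. Several genes have further annotated starts, such as Hoxd3 with 6 in all, and these were not classed.

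Gene length was considered because a longer gene body offers more room for a summit. The median length was 3.49 kb for Hox genes and 17.4 kb for all protein-coding genes. Genes with a length within the range of the Hox genes, 1.85 to 50 kb, had a linked TRBS in 38.3% of 15479 cases, and in 58.1% if they were CpG-rich as well. Both shares lay above the upper limit of 20.3% for the Hox genes. That limit is too low, because it treats the genes of a cluster as independent. The length range is wide beside the Hox median, so length was not closely matched. By the 10 kb around the 5′ end alone, 7.69% of Hox genes and 35.9% of all protein-coding genes were linked.

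The distance from the 5′ end to the nearest summit separated the clusters. In the Hoxa cluster it was lowest at Hoxa7, with 0.073 kb, and had a median of 19.1 kb, with 39.1 kb at Hoxa13, a gene of the digits. In the Hoxd cluster it ranged from 11.8 kb at Hoxd1 to 107 kb at Hoxd13, also a gene of the digits, with a median of 77.1 kb. The distances of the Hoxa and Hoxd genes overlapped. In the Hoxc cluster the range was 117 kb at Hoxc4 to 169 kb at Hoxc10, a gene of lumbar motor neurons, with a median of 145 kb. In the Hoxb cluster it was 119 kb at Hoxb13, a gene of the prostate and tail, to 280 kb at Hoxb1, which specifies a segment of the hindbrain, with a median of 223 kb. By the 5′ end of the gene record, all Hoxb and Hoxc genes were farther from a TRBS than any Hoxa or Hoxd gene. From the nearest transcript start, Hoxc4 was at 101218 bp and Hoxd13 at 106517 bp, so that this order does not hold for every annotated start.

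The median over the 39 Hox genes was 107 kb, against 25.2 kb for all protein-coding genes and 5.38 kb for CpG-rich ones. A longer distance than this Hox median was found for 21.1% of all protein-coding genes and for 7.78% of the CpG-rich ones. The nearest summit was more than 100 kb away for 20 Hox genes. Within a cluster the distances follow from the order of the genes, so that they are not separate measurements: in the Hoxd cluster they increase from Hoxd1 to Hoxd13, with Hoxd3 and Hoxd4 at the same 62.9 kb, because the nearest TRBS of every member lies beyond Hoxd1.

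Position along the body axis was compared by paralog group. Of the 12 anterior genes, groups 1 to 4, which act in the hindbrain and pharyngeal arches, Hoxa3 alone was linked. Of the 11 central genes, groups 5 to 8, Hoxa7 alone was linked, and of the 16 posterior genes, groups 9 to 13, Hoxa9. The median distance was 63.2 kb in the anterior, 145 kb in the central and 103 kb in the posterior groups. The ranges, 8.45 to 280, 0.073 to 228 and 9.31 to 196 kb, overlapped. The order of the groups in distance therefore did not follow their order along the axis.

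The clusters were then considered as stretches of DNA rather than as single genes. From the first to the last gene they span 105 kb (Hoxa, chr6:52155590-52260880), 174 kb (Hoxb, chr11:96194316-96368256), 116 kb (Hoxc, chr15:102921103-103036852) and 96.8 kb (Hoxd, chr2:74668310-74765142). With a margin of 10 kb on either side, the 572 kb of the 4 clusters held 2 TRBS, or 0.35 per 100 kb (exact Poisson interval 0.0424 to 1.26). The genome held 0.906 per 100 kb, which is inside this interval. Per base of sequence, a difference from the genome was therefore not detectable with so few TRBS. Per gene the clusters are dense, with 5.16 to 10.4 protein-coding 5′ ends per 100 kb against 0.829 in the genome.

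Sequence near genes was compared next. The windows used for linking held 1 TRBS in 493 kb for the Hox genes, or 0.203 per 100 kb (0.00514 to 1.13). The windows of all protein-coding genes held 1.46 per 100 kb (1.44 to 1.48), above the upper limit for the Hox genes. That limit rests on 1 TRBS and takes TRBS to fall independently. A further TRBS, 11847 bp from the 5′ end of Hoxd1, lay just outside the windows. The 500 kb on either side of the clusters, 8 flanks in all, held 63 TRBS or 1.58 per 100 kb (1.21 to 2.02), an interval that overlaps that of the clusters. The flanks of the Hoxc cluster held 16 and 24 TRBS, those of the Hoxb cluster 5 and 7, those of the Hoxa cluster 3 and 4 and those of the Hoxd cluster 1 and 3. The flanks of Hoxc thus held 40 of the 63, and the other 6 flanks held 23 in 3000 kb, or 0.767 per 100 kb (0.486 to 1.15), which includes the value of the genome.

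**Figure D2:**
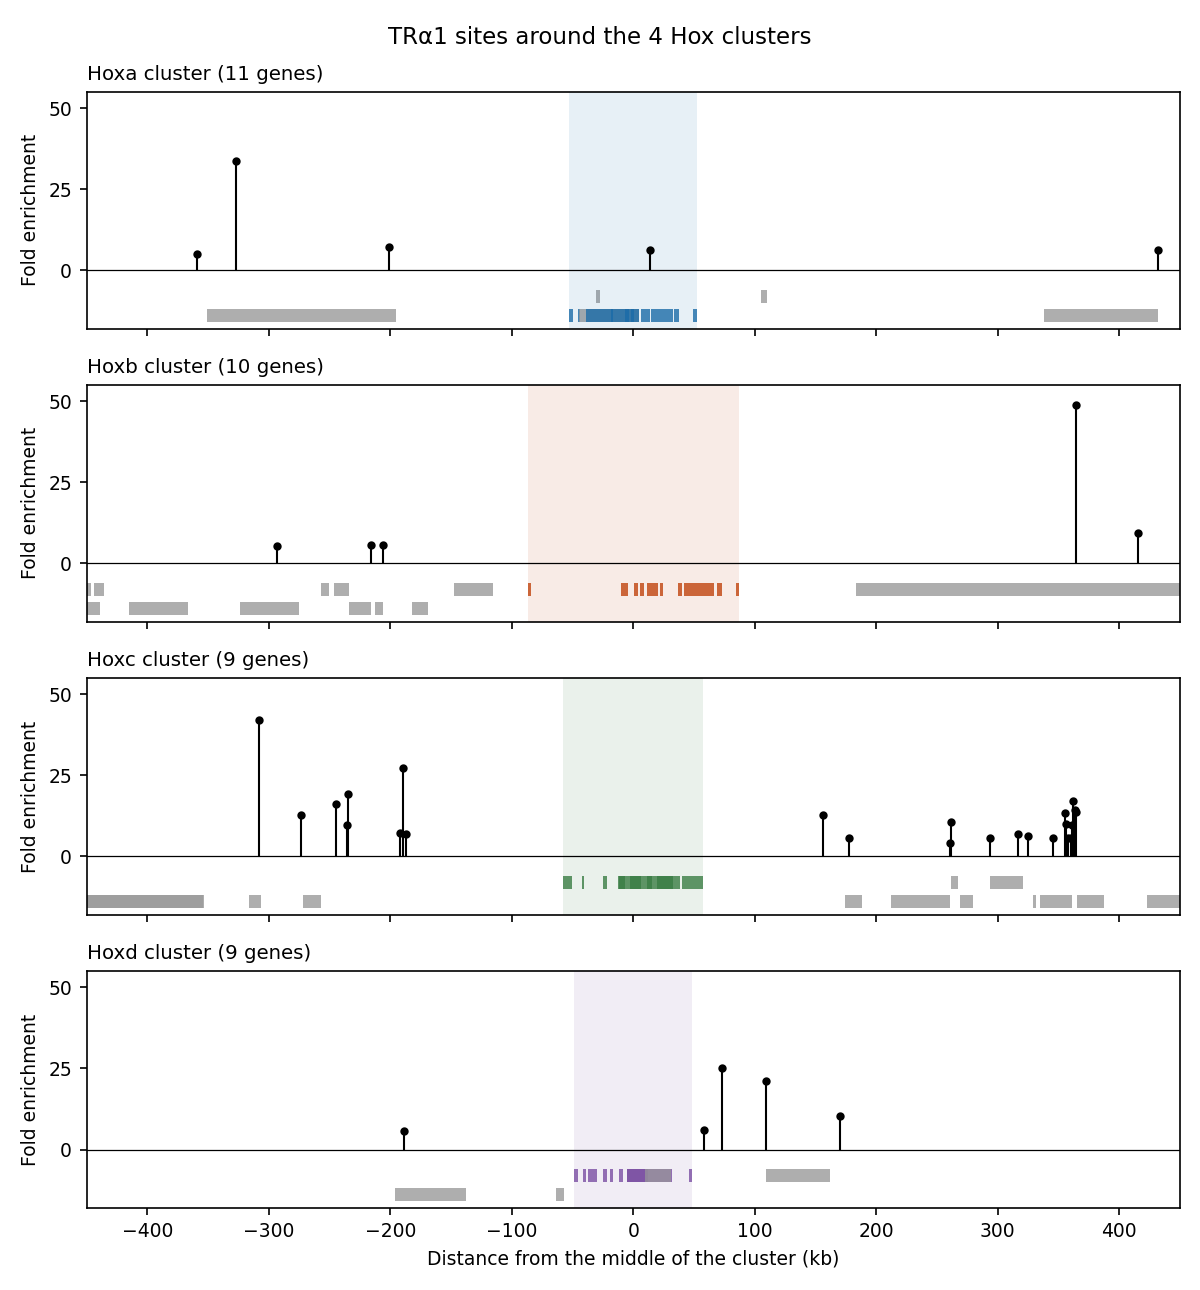
TRBS around the 4 clusters, with the distance from the middle of the cluster in kb on the horizontal axis and the fold enrichment of each TRBS (lines with points) on the vertical axis. Blocks are protein-coding genes on the plus strand (upper row) and the minus strand (lower row), coloured for Hox genes and grey for others, and the shaded band runs from the first to the last Hox gene. The TRBS at Hoxa7, with a fold enrichment of 6.27, is the only one inside a band.

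The second TRBS in these stretches lay beyond the Hoxd cluster and was linked to no Hox gene. It covered chr2:74774714-74774954, 9.69 kb past the end of Hoxd1, with a pileup of 15, a fold enrichment of 5.95 and a score of 76. Its DR4, printed above, lay 42 bp from the summit. A stronger TRBS followed 26662 bp from the 5′ end of Hoxd1, with a pileup of 85, a fold enrichment of 25.1 and a score of 941. It held no DR4 with up to 3 mismatches. Then came the TRBS at the promoter of Mtx2, which encodes a protein of the mitochondrial outer membrane, 74 bp from its 5′ end and with a fold enrichment of 21.2. On the side of Hoxd13, the nearest TRBS was 140 kb away in an intron of Lnpk, with a fold enrichment of 5.58.

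At the other clusters no TRBS lay as close as on the side of Hoxd1. At the Hoxb cluster it was 119 kb on the side of Hoxb13, where a TRBS with a fold enrichment of 5.58 lay in Atp5g1, and 277 kb on the side of Hoxb1, where an intron of Skap1 held a TRBS with a fold enrichment of 48.7 and a pileup of 130. At the Hoxc cluster it was 129 kb (fold enrichment 7.03) and 98.8 kb (12.6), both in intergenic sequence. At the Hoxa cluster it was 148 kb, in Skap2 (7.26), and 379 kb, at the promoter of Hibadh (6.22). A stronger TRBS, with a fold enrichment of 33.8, lay farther out in Skap2, 275 kb from the Hoxa cluster.

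The clusters lay in 5 intervals between neighbouring TRBS, 2 of them on either side of the TRBS at Hoxa7. The interval with all 10 Hoxb genes was 570 kb long, longer than 96.7% of the 23967 intervals in the list. The Hoxc interval was 344 kb (longer than 93%), the Hoxd interval 247 kb (89.4%) and the Hoxa intervals 214 and 419 kb (87.7 and 94.8%). The median interval was 38.8 kb. The Hox intervals were picked by the genes they hold, and a cluster without a TRBS inside must lie in a long interval. Their ranks by length therefore restate the lack of TRBS and are not a separate result. The Hoxb interval held 14 protein-coding 5′ ends and the Hoxd interval 12, whereas the Hoxc interval held the 9 Hoxc genes alone.

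At least 9 protein-coding 5′ ends were found in 255 of the 23967 intervals, 4 of which held Hox genes. The cut of 9 is the count in the Hoxc interval, so it was taken from the Hox intervals themselves. A dense cluster without a TRBS inside passes such a cut, so the count of 4 is not a separate result. Intervals of like length were not compared in this count. In 36 of the 255 at least 50% of the genes were olfactory receptors and in 12 they were vomeronasal receptors, gene families of sensory cells of the nose. If at least 50% of the 5′ ends had to be CpG-rich as well, 21 intervals were left, among them those of the Hoxc and Hoxd clusters.

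**Figure D3:**
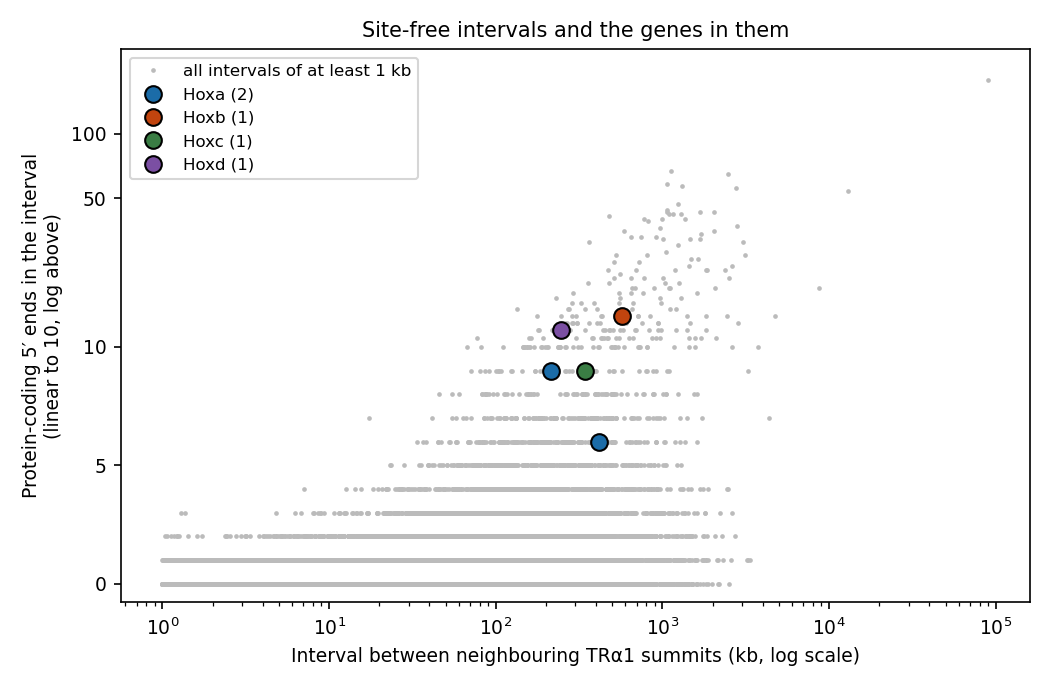
Length of each interval between neighbouring TRBS summits in kb (log scale) against the number of protein-coding 5′ ends in it (linear to 10, log above), for intervals of at least 1 kb. The 5 intervals with Hox genes (large points) held 6 to 14 5′ ends over 214 to 570 kb.

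The list also bears on weaker signal, because the authors removed calls with a score below 60 after numbering them in genomic order. Gaps in the numbers show where the 23246 removed calls, 49.2% of 47234, had been. The 5 Hox intervals, 1.79 Mb in all, held 3 removed calls, of which 2 were in the Hoxd interval and 1 in the Hoxc interval. This was 1.67 per Mb (exact Poisson interval 0.345 to 4.89), against 6.2 per Mb (6.08 to 6.32) in the 2953 other intervals of at least 214 kb. The 3 other Hox intervals, those of the Hoxa and Hoxb clusters, held 0 removed calls, as did 8.03% of these other intervals. The position of a removed call within its interval is not known, so that it may lie outside the cluster.

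DR4 elements were present in the clusters. Allowing 2 of the 12 bases of the half-sites to differ, 51 were counted in the 572 kb, 6 in the Hoxa cluster, 19 in the Hoxb cluster and 13 each in the Hoxc and Hoxd clusters. This was 8.92 per 100 kb, against 11 in the genome. A TRBS touched 1 of the 51, against 1.85% of 290078 in the genome, where the same share would also give about 1. The fraction of DR4 elements occupied was too low everywhere for 51 elements to show a difference.

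The 4 elements with 1 mismatch, printed above, were also free of TRBS, against 4.62% touched of the 22256 such elements with at most 1 mismatch in the genome. At so low a share, 4 elements cannot show a difference. The element in Hoxa9 lay 1269 bp from the 5′ end of this gene and 8039 bp from the summit at Hoxa7. The element in an intron of Hoxc5 lay 485 bp upstream of the 5′ end of Hoxc8, a gene of motor neurons of the forelimb region. The element in Hoxb9, a gene of the thoracic region, was 199 kb from the nearest summit.

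The clusters also contain noncoding genes and pseudogenes, 48 in the clusters with their 10 kb margins. Of these, 1 had a linked TRBS, against 19.5% of the noncoding genes and pseudogenes of the genome. This was Mir196b, in the Hoxa cluster, at 8384 bp from the summit at Hoxa7. Several of the 48 are short records inside a longer noncoding gene, such as those within Hoxa11os, so they are not 48 separate loci. The microRNAs of the clusters are printed because the clusters carry copies with the same seed (bases 2 to 8, in capitals), which recognises target messages, many of them Hox messages themselves. The sequences are from RefSeq, GRCm38.p6.
mmu-miR-196b-5p (Hoxa): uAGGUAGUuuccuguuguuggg
mmu-miR-196a-5p (Hoxb and Hoxc): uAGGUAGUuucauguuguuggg
mmu-miR-10a-5p (Hoxb): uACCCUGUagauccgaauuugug
mmu-miR-10b-5p (Hoxd): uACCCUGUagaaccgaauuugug

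The other copies with these seeds were far from any TRBS. Mir196a-1 in the Hoxb cluster was 190 kb and Mir196a-2 in the Hoxc cluster 162 kb from the nearest summit. Mir10a in the Hoxb cluster was 242 kb and Mir10b in the Hoxd cluster 48.8 kb away. The long noncoding RNAs Hotairm1 and Hottip, which lie at the opposite ends of the Hoxa cluster, were 64.9 and 41 kb from the summit at Hoxa7. Hotair, a noncoding RNA of the Hoxc cluster, was 156 kb from a summit and Haglr, beside Hoxd1, 11.9 kb.

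The neighbours of the clusters had TRBS about as often as other genes. Of the 40 protein-coding genes that are the 5 nearest on either side of each cluster, 22 or 55% (39.8 to 69.3) had a linked TRBS. The interval includes the 44.7% of all protein-coding genes, and 23 of the 40 promoters were CpG-rich. A summit within 1 kb of the 5′ end was found for 13 of the 40, against 23.2% of all protein-coding genes. The interval for the neighbours lay above that for the Hox genes, 2.65 to 20.3%. Both treat genes as independent, although the linked Hox genes share a single TRBS. They are thus too narrow for a firm comparison. The highest fold enrichments were 107 at the promoter of Chn1, a GTPase-activating protein of neurons, 48.7 in Skap1 and 42.1 in Atp5g2. Neighbours were taken by gene order at any distance, so a gene beside a cluster need not be close to it. Chn1 (chr2:73610660-73775346) and Atp5g3 (chr2:73908447-73911326) lay beyond the 500 kb flank of the Hoxd cluster, which starts at chr2:74668310. Hnrnpa3, Agps and, at Hoxa, Creb5 also lay beyond the flanks. The clusters arose by duplication, and several neighbours are paralogs as well. The adaptor genes Skap2 and Skap1, beside Hoxa and Hoxb, both had a linked TRBS, and so did the ATP synthase genes Atp5g1, Atp5g2 and Atp5g3, beside Hoxb, Hoxc and Hoxd, with fold enrichments of 5.58, 42.1 and 12.5. Other paralogs had no linked TRBS, such as Snx10 and Snx11 or Calcoco1 and Calcoco2, or differed among copies. Cbx5 and Nfe2l1 had one, whereas Cbx1, Cbx3, Nfe2, Nfe2l2 and Nfe2l3 had none. The other linked neighbours had highest fold enrichments of 5.25 at Tax1bp1 to 21.8 at Jazf1. They were Hibadh and Creb5 beside Hoxa, Ube2z and Nfe2l1 beside Hoxb, Npff, Smug1, Cbx5, Hnrnpa1 and Copz1 beside Hoxc, and Lnpk, Atf2, Mtx2, Hnrnpa3 and Agps beside Hoxd. Evx1 and Evx2, homeobox genes that lie next to Hoxa13 and Hoxd13, had none, with the nearest summit at 91.7 and 115 kb.

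Other genes of the same homeobox class were examined next. Of 16 genes outside the clusters, among them Gsx2, Gbx2, En2 and Dlx5, 2 had a linked TRBS, or 12.5% (3.5 to 36), against 44.7% of all protein-coding genes and 65.2% of CpG-rich ones, to which 9 of the 16 belonged. In these 16 genes the median distance to the nearest summit was 90.7 kb. The 2 linked genes were Dlx2, with a fold enrichment of 7.58, and Dlx6, with 7.07, transcription factors of forebrain GABAergic neurons. The interval for these 16 genes overlapped that of the Hox genes.

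Genes that encode partners and regulators of the Hox system were examined last, beside the 44.7% of all protein-coding genes. Of 9 genes for cofactors that bind DNA with HOX proteins, 8 or 88.9% (56.5 to 98) had a linked TRBS. Pknox2 had 17 TRBS with a highest fold enrichment of 20.8, Pbx3 had 6 (17.3) and Meis2 had 8 (16.8), whereas Pknox1 had 0. Of 17 polycomb and trithorax genes, which keep Hox genes off or on, 9 or 52.9% (31 to 73.8) had one, a share near that of all genes. The highest fold enrichments were 62.4 at Jarid2, which helps recruit a polycomb complex, 56.5 at Kdm6b, a histone demethylase that removes the polycomb mark, 40.4 at Ring1 and 18 at Cbx7. Of 10 genes for upstream regulators and the insulator protein, 7 had one (39.7 to 89.2%), an interval that also includes 44.7%. Among them the fold enrichment was 40.4 at Rxrb, 38.9 at Rarb, 36.1 at Rara and 27.4 at Ctcf. Ring1 and Rxrb lie side by side and share the same TRBS. Cdx1, Cdx2 and Cdx4, which activate Hox genes in the embryo, had 0. CpG-rich promoters, a class of which 65.2% were linked, made up 4 of 9, 12 of 17 and 4 of 10 genes of these lists, and their part in the counts was not tested. A summit within 1 kb of the 5′ end was found for 3 of 9, 6 of 17 and 3 of 10 genes. The share was 23.2% over all protein-coding genes. Linking counts the whole gene body, so long genes offer more room for a summit, and gene length was not matched for these lists.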

How the data were processed

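ChIP-seq of GS-tagged TRα1 was performed in striatum, with 2 ChIP libraries and 1 input library, crosslinked with disuccinimidyl glutarate and formaldehyde. The submitters' processing notes name Bowtie2 2.3.2.2 and MACS2 2.1.1.20160309.0, while the methods of the study name another Bowtie version. The authors aligned reads to GRCm38, called peaks and removed calls below a score of 60. The treatment of duplicates, and any pooling of the ChIP libraries, is not given in the sources used here. The deposited pileup is the coverage signal in fragments at the summit. The deposited fold enrichment is the ratio of pileup to local background, with 1 added to each. The −log10 q-value and the score, 10 times −log10 q without decimals, are also values of the authors. These values come from 1 list and carry no replicate error.

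Genes were those of GENCODE vM21 on the chromosomes, with the 5′ end of the gene record as the start. The local background was computed as (pileup + 1) / fold enrichment − 1. DR4 was searched on both strands as AGGTCA-N4-AGGTCA. Shares have 95% Wilson intervals and densities exact Poisson intervals, and no significance test was made, because the list has no values for single libraries. Some genes are not reported here by name. RefSeq promoters matched 22 of 39 Hox genes. Named were all members with a linked TRBS, the nearest and farthest others, the sites around the 10 kb limit, linked neighbours, the top 2 to 4 genes of each list and linked noncoding genes. Further noncoding genes, list members without a TRBS and single Hox genes were named after their values were seen. The Hox genes, the lists and the alternatives were chosen with earlier results of these data known. Intervals between TRBS and removed calls were added after seeing the data. Alternatives were other distances, scores, positions, starts, margins, CpG ratios and mismatch limits. On simulated data 300 of 300 genes received the correct TRBS and 200 of 200 planted DR4 elements were found. The scripts ran in Python 3.11.15 with pandas 2.3.3 and numpy 2.4.6, intervals were from scipy 1.17.1 and plots from matplotlib 3.10.9.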

Additional observations from a re-analysis of the deposited data

How the results depend on the processing

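No paired analysis was possible because the list holds no values for single libraries, and no library could be left out for the same reason. Of 103 alternative values, 77 stayed within 1.5 times or within the interval and 26 moved. Many of the 77 were 0 against 0. Stricter runs can only remove links, so a count of 0 had to stay 0 in them. The Hoxb and Hoxc clusters had 0 linked genes in every alternative run, also at 30 and 100 kb, where links could have been added. With a distance of 1 kb or 5 kb, 1 Hox gene, in the Hoxa cluster, was linked (38.3 and 40.9% of all genes). With 30 kb, the distance the study itself chose, 8 were linked (20.5% against 57.7%), 7 in the Hoxa cluster and 1 in the Hoxd cluster. They were linked by 3 distinct TRBS, 2 of them at Hoxd. With 100 kb, 19 were (48.7% against 78.7%), 11 in the Hoxa and 8 in the Hoxd cluster, by 4 distinct TRBS, 3 of them at Hoxd. By cluster the order turned: at 30 kb Hoxa had 63.6% against 57.7%, and at 100 kb Hoxa had 100% and Hoxd 88.9% against 78.7%. A score of at least 200 left 0 linked genes, 0 TRBS within 1 kb (9.22% of all genes) and 0 TRBS per 100 kb in the clusters together and in Hoxa and Hoxd, against 0.285 in the genome. Without a margin the Hoxd cluster had 0 per 100 kb. With a CpG ratio of at least 0.75, 47.6% of CpG-rich genes had a TRBS within 1 kb, against 0 of 9 Hox genes. With at most 1 mismatch, 0 TRBS of the clusters held a DR4 and 0 elements were touched. The 3 linked Hox genes of the main run rest on 1 TRBS, whose score of 96 was below the list median of 125. A call lost between libraries could not be detected.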
